A study of Mus musculus with 36 samples.

Results

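Macrophages sorted from the aortas of mice with advanced atherosclerosis were compared with sorted monocytes of the same stage. The groups are the 4 aortic macrophage libraries and the 4 monocyte libraries that the labels assign to advanced atherosclerosis, 8 of the 36 RNA-seq libraries of the series. All 8 come from mice labelled Apoe ko, which lack apolipoprotein E, and all had 6 months of high cholesterol diet, so genotype, diet and its duration are shared by both sides. Whole aortas were digested with collagenase, and both populations were sorted by flow cytometry into lysis buffer, per the labels' protocols. For monocytes the protocols name blood and spleen, with lysis of red cells, while the titles name the circulation only. Whether both sources went into each monocyte library is not clear. The sorting markers, the age of the mice and whether each library came from its own mouse are not given in the sources used here, so the p-values cover only how much these libraries vary. Since collagenase is described for the aorta only, tissue digestion and cell population cannot be told apart in any of the results. Macrophages from the peritoneal lavage of the same stage (4 libraries) and aortic macrophages and monocytes of the early stage (1 month of the same diet, 4 libraries each, also Apoe ko) serve as points of comparison. The study set out to follow gene regulation in circulating and lesional cells while atheroma forms and progresses.

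Monocytes are made in the bone marrow and circulate as classical cells, which enter inflamed tissue by way of the chemokine receptor CCR2, and as nonclassical cells, which patrol the vessel lumen. In the artery wall, monocyte-derived cells turn into macrophages that take up modified lipoproteins, digest them in lysosomes, export cholesterol and engulf dying cells. The adventitia of healthy arteries also holds resident macrophages that carry the hyaluronan receptor LYVE1, and plaques hold lipid-laden foam cells that carry the lipid receptor TREM2. In bulk libraries, fewer cells of a type and less RNA per cell cannot be told apart.

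Library totals were 1073265, 2142888, 2403016 and 2468285 counted reads in aortic libraries 1 to 4, against 1511092, 942899, 1685481 and 1376798 in monocyte libraries 1 to 4 (exact permutation p = 0.114, two-sided). Thinned to 942899 reads, aortic library 1 held 9144 detected genes and the other aortic libraries 11973 to 12355, against 11338 to 11558 in the monocyte libraries. Aortic library 1 also correlated less with the other aortic libraries (Spearman 0.837 to 0.844 over genes) than these did with each other (0.946 to 0.957), while monocyte libraries correlated at 0.961 to 0.965. The ribosomal RNA precursor Rn45s took 9.23 to 10.8% of the aortic reads, against 6.50 to 13.9% of the monocyte reads. The biological coefficient of variation, the spread between libraries beyond counting, was 34.6% in aortic macrophages, against 17.5% in monocytes.

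The labels were checked against marker genes. Levels are given as CPM, a gene's counts scaled to a common library size, and are compared between libraries, not between genes. Adgre1, which encodes the macrophage marker F4/80, had 1217, 809, 799 and 898 CPM in aortic libraries 1 to 4, against 239.6, 174, 147 and 156 CPM in monocyte libraries 1 to 4. Ly6c2, the marker of classical monocytes, whose reads may be shared with its near copy Ly6c1, had 17.7, 0, 1.25 and 0 CPM in the aortic libraries, against 371, 664, 573 and 518 CPM in the monocyte libraries. Both markers therefore separated the groups without overlap, in the directions their labels name. Apoe reads were counted in every library, at 112, 26.1, 39.1 and 40.9 CPM in aortic macrophages, against 2.65, 9.54, 10.1 and 10.9 CPM in monocytes. Counts over a whole gene do not show whether a disrupted allele gives a working product, so they do not check the genotype.

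Of 8925 genes tested, 2713 (30.4%) passed edgeR's quasi-likelihood test at a Benjamini-Hochberg adjusted p under 0.05. Of these, 1615 (18.1% of the genes tested) were higher in aortic macrophages and 1098 (12.3%) were lower. The difference was at least 4-fold for 691 of the higher and 287 of the lower genes, and the median log2 fold change over all tested genes was 0.02. Fold changes are log2 values, aortic macrophages minus monocytes, given as value ± standard error with n = 4 libraries in each group and the adjusted p over all tested genes. The normalisation factors alone place a log2 fold change 0.18 above a ratio of CPM values, and the fitted value of a single gene can lie to either side of this. No value of the 4 aortic libraries overlapped a monocyte value for 3458 of the genes tested (38.7%), with 1373 (15.4%) higher in every aortic library and 2085 (23.4%) lower.

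**Figure D1:**
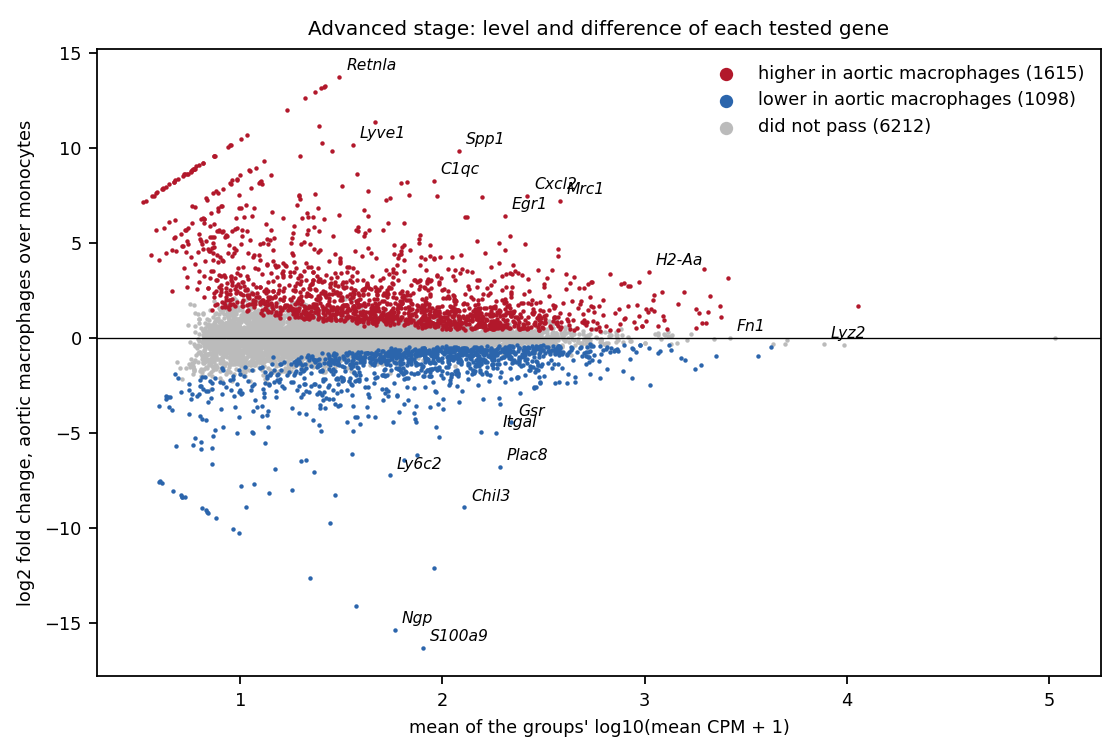
Each point is one of the 8925 tested genes, with its level on the x axis (the mean of both groups' log10 of mean CPM + 1) and its log2 fold change, advanced aortic macrophages minus advanced monocytes, on the y axis. The 1615 genes that were higher, the 1098 that were lower and the 6212 that did not pass are marked by colour, and the diagonal streaks at the left edge are genes with no count in one group, whose fitted fold change depends on the prior count.

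Without aortic library 1, which stood apart in detected genes and correlation, 4218 genes passed, and these held 2705 of the 2713 above in the same direction. In the lists of values its level always comes first of the 4 aortic ones.

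The 12 genes that stood furthest above monocytes in the aortic libraries had no count, or next to none, in monocytes. Retnla, which encodes the secreted protein RELMα of alternatively activated macrophages, had 1174, 977, 829 and 849 CPM in the aortic libraries, against no count in the 4 monocyte libraries. The mean was 957 ± 159 CPM (SD, n = 4), at least 1692-fold higher than a floor of 3 counts over the monocyte group (adjusted p = 1.69e-07). Folr2, the folate receptor beta of tissue macrophages, had 717, 453, 528 and 497 CPM, against no monocyte count. It was at least 963-fold higher against the same floor (adjusted p = 3.65e-07), and its highest value was in aortic library 1. Gas6, which bridges dying cells to the receptors AXL and MERTK, had 485, 425, 379.9 and 473 CPM, against no monocyte count (at least 798-fold higher, adjusted p = 1.89e-07). Fcrls, an Fc receptor-like scavenger protein, was at least 1246-fold higher, Slco2b1, an organic anion transporter, at least 524-fold higher and C1qtnf1, a secreted relative of complement C1q, at least 176-fold higher. In all, 15 genes reached a mean of 50 CPM in aortic macrophages with no count in any monocyte library, and 7 did so in the other direction.

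A few monocyte reads were counted for Dab2, Pmp22 and Cxcl1, so that a ratio of pooled counts can be given. Dab2, an endocytic adaptor, had 1064, 1569, 1350.0 and 1749 CPM in the aortic libraries, against 1.99, 0, 0 and 0 CPM in the monocyte libraries. All monocyte reads of Dab2 were thus in library 1. Its pooled ratio was 2744, 95% counting interval 939 to 13306, which covers counting error only. Pmp22, a membrane protein best known from myelin, had 416, 542, 568 and 574 CPM in the aortic libraries, against 0, 0, 0.593 and 0 CPM in the monocyte libraries, a pooled ratio of 2994, 95% counting interval 537 to 118300.0. Without monocyte library 1 for Dab2, or library 3 for Pmp22, no monocyte read of the gene is left, and the same holds for other genes below whose monocyte reads were all in 1 library. A fold change fitted without that library, as given for Lyve1 and Il10, depends on the prior count and does not measure the size of the difference.

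**Figure D2:**
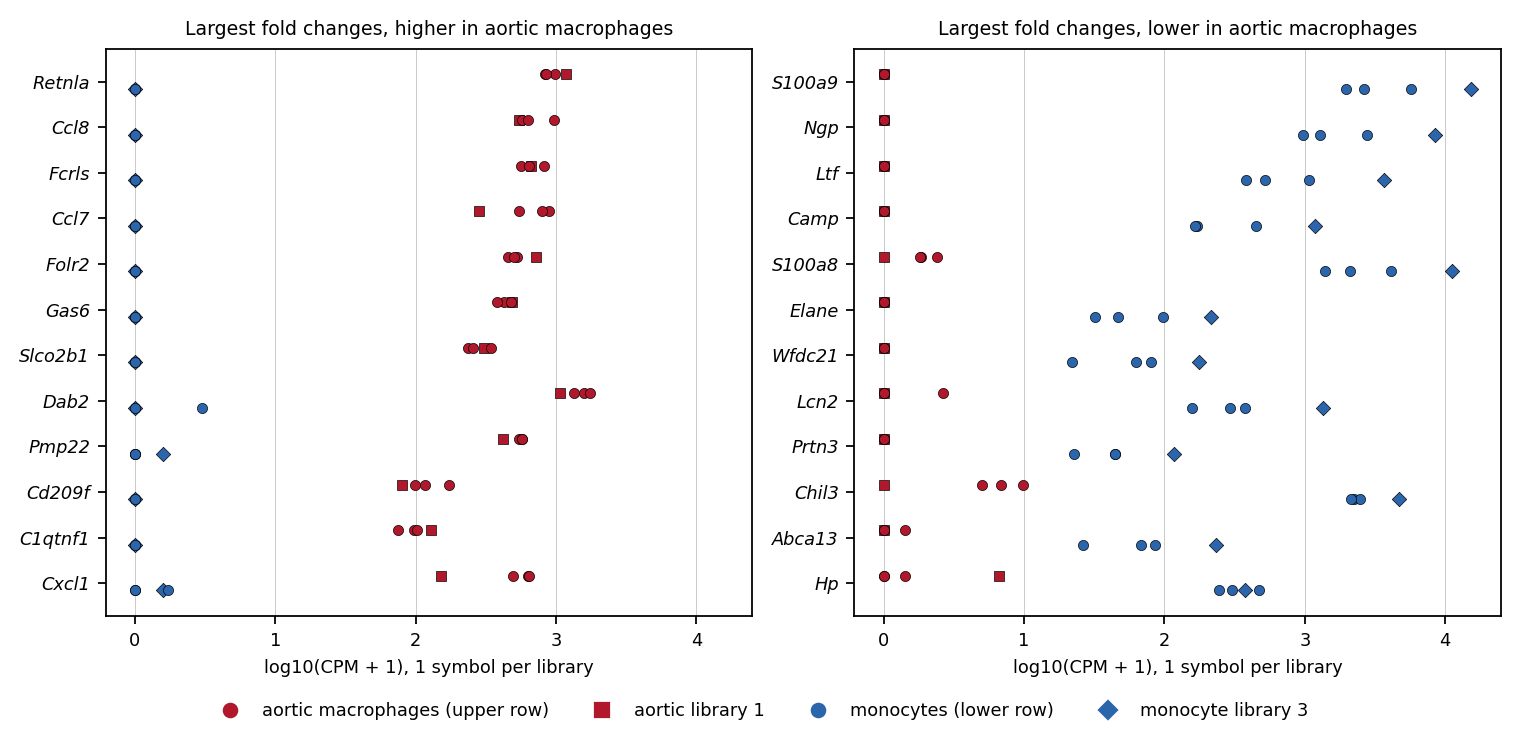
Level in each library, as log10 (CPM + 1), of the 12 genes with the widest difference in each direction, with advanced aortic macrophages beside advanced monocytes. Squares mark aortic library 1 and diamonds monocyte library 3. The aortic points of the 12 higher genes lie together far above the monocyte points at or near 0, while the monocyte points of the lower granule genes spread widely, with library 3 highest for S100a9 and Ngp.

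Genes of general macrophage identity were mostly higher in the aortic libraries. Of 15 members tested, 12 passed as higher and none as lower, with a median log2 fold change of 1.57. Over all tested genes 18.1% were higher and 12.3% lower, with a median of 0.02. These shares stand beside each list count below. A member counts as tested when its reads passed the filter, which a gene can pass through its level in a single group, so that counts over tested members are a description of the list. C3ar1, the receptor for the complement fragment C3a, had 811, 1047, 1253 and 1178 CPM in the aortic libraries, against 19.2, 19.1, 6.53 and 16.7 CPM in the monocyte libraries. Its groups did not overlap, and its log2 fold change was 6.34 ± 0.30, adjusted p = 1.69e-07. Mertk, the receptor kinase for apoptotic cells, had 259.9, 221, 199 and 231 CPM, against 9.26, 7.42, 1.78 and 2.91 CPM, with no overlap (5.62 ± 0.34, adjusted p = 7.08e-07). Cd14, the lipopolysaccharide co-receptor, had 955, 712, 1142 and 999 CPM, against 43.7, 31.8, 45.7 and 49.4 CPM. Each aortic value of Cd14 was again above each monocyte value (4.64 ± 0.21, adjusted p = 1.37e-07), and so it was for the tetraspanin gene Cd81 (4.91 ± 0.21, adjusted p = 9.03e-08).

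Genes that both cell types use heavily differed little. Lyz2, which encodes lysozyme and cannot be cleanly separated from its near-identical copy Lyz1, had 7045, 5909, 6692 and 5954 CPM in the aortic libraries, against 8148, 9071, 9846 and 9794 CPM in the monocyte libraries. Every aortic value was lower, but the test was not passed (-0.35 ± 0.12, adjusted p = 0.0578). Itgam, the integrin CD11b, overlapped between the groups at 681 ± 148 CPM in aortic macrophages and 902 ± 76.3 CPM in monocytes (SD, n = 4) and did not pass (-0.23 ± 0.15, adjusted p = 0.288). Csf1r, the growth factor receptor of both cell types, passed with a small difference (0.51 ± 0.13, adjusted p = 0.0110) and an overlap of the libraries.

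Genes of the LYVE1-type resident arterial macrophage were uniformly higher. All 20 tested members passed as higher (18.1% of all tested genes did), and the 4 aortic values of each lay above all its monocyte values (15.4% of all tested genes). One further member, Cd209d, fell below the filter. The median log2 fold change was 7.70, or 7.10 with genes that had no monocyte count set at their bound. Lyve1 itself had 1062, 708, 635 and 887 CPM in the aortic libraries, against 0, 0, 2.37 and 0 CPM in the monocyte libraries. Monocyte library 3 held the only monocyte reads (10.17 ± 0.47, adjusted p = 1.53e-07, or 13.50 without monocyte library 3). Timd4, which encodes the phosphatidylserine receptor TIM-4 of long-lived resident macrophages, had 143, 85.9, 44.1 and 47.0 CPM, against no monocyte count. It was at least 127-fold higher (adjusted p = 7.93e-05), and aortic library 1 had the highest value and libraries 3 and 4 the lowest. Cd209f, one of a family of similar lectin genes whose reads may be shared, was at least 226-fold higher (adjusted p = 1.04e-05). The summed level of the list ran from 18091 to 21213 CPM in the aortic libraries, against 1501 to 2475 CPM in the monocyte libraries, which did not overlap.

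The TREM2-type foam cell list was also higher, and the aortic libraries differed among themselves. Of 18 tested members 14 passed as higher, with a median log2 fold change of 2.06, and 1 passed as lower. That one was Anxa2, an annexin of the cell membrane, named because it ran against the list (-1.04 ± 0.26, adjusted p = 0.0112). Spp1, which encodes osteopontin, had 641, 2660.0, 4901 and 4231 CPM in the aortic libraries, against 7.94, 3.18, 2.37 and 1.45 CPM in the monocyte libraries. No values overlapped (9.84 ± 0.79, adjusted p = 4.44e-06, or 10.56 without monocyte library 1), and aortic library 1 had the lowest aortic value. Gpnmb, a glycoprotein of lipid-loaded macrophages, had 104, 266, 425 and 258 CPM, against 4.63, 11.7, 5.93 and 2.18 CPM (5.70 ± 0.52, adjusted p = 1.12e-05). Mmp12, the macrophage elastase, had 130.4, 548, 839 and 452 CPM, against 0, 1.06, 0 and 1.45 CPM, a pooled ratio of 1011, 95% counting interval 346 to 4904 with an adjusted p of 6.84e-06. For both, aortic library 1 was again the lowest of the 4.

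The receptor gene Trem2 had 56.8, 96.1, 141 and 124 CPM in the aortic libraries, against 24.5, 30.8, 10.7 and 12.3 CPM in the monocyte libraries, without overlap (2.65 ± 0.38, adjusted p = 0.000309). Lpl, the lipoprotein lipase, had 446, 919.8, 1008 and 681 CPM, against 26.5, 119, 53.4 and 55.9 CPM (3.82 ± 0.41, adjusted p = 3.71e-05). Members of the list that both populations use did not pass, among them Vim, the intermediate filament vimentin (-0.08 ± 0.20, adjusted p = 0.795), and Lgals3, which encodes galectin-3 (0.25 ± 0.22, adjusted p = 0.443). Over the whole list the summed level was 10064 CPM in aortic library 1 and 12418 to 18941 CPM in the other aortic libraries, against 4903 to 5638 CPM in monocytes. For the LYVE1 list, aortic library 1 was the second highest of the 4, at 20699 CPM.

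Receptors that take up lipoproteins and debris followed. Of 13 tested scavenger and lipoprotein receptors 8 were higher, with a list median of 3.21, and 2 were lower. Mrc1, the mannose receptor, had 3716, 4829, 3702 and 4944 CPM in the aortic libraries, against 29.1, 36.1, 24.3 and 42.9 CPM in the monocyte libraries. The groups were far apart relative to their spread (7.22 ± 0.23, adjusted p = 1.86e-08). Cd163, the receptor for hemoglobin bound to haptoglobin, had 1263, 712, 534 and 916 CPM, against 0.662, 5.30, 2.37 and 5.81 CPM (8.15 ± 0.43, adjusted p = 3.01e-07). Stab1, a receptor for modified lipoprotein and aged cells, had 1361, 796, 826 and 953 CPM, against 8.60, 1.06, 0 and 4.36 CPM (8.22 ± 0.51, adjusted p = 7.81e-07, or 9.22 without monocyte library 1). Aortic library 1 had the highest level of both Cd163 and Stab1. Colec12 (5.46 ± 0.34, adjusted p = 7.77e-07) and Cxcl16 (5.21 ± 0.32, adjusted p = 7.08e-07), a scavenger receptor for oxidised lipoprotein that is also a membrane-bound chemokine, were higher too. Scarb1, the high-density lipoprotein receptor, was one of the 2 lower members, named because it ran against the list (-2.72 ± 0.30, adjusted p = 4.34e-05). Lrp1 did not pass (-0.28 ± 0.14, adjusted p = 0.151).

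Genes of cholesterol export and of sterol synthesis were more often higher than lower, as were all tested genes. Among 15 tested targets of the sterol-sensing LXR receptors and genes of cholesterol efflux, 6 were higher and 2 lower, with a median of 0.21. Over all tested genes 18.1% were higher and 12.3% lower. Abca1, the transporter that loads cholesterol onto apolipoprotein A-I, had 1736, 2109, 2228 and 1864 CPM in the aortic libraries, against 199.9, 467, 299.6 and 421 CPM in the monocyte libraries. All aortic values were higher (2.71 ± 0.24, adjusted p = 9.07e-06). The companion transporter Abcg1 had 139, 158, 308 and 199.7 CPM, against 240.2, 409, 267 and 385 CPM, which overlapped and did not pass (-0.49 ± 0.26, adjusted p = 0.191). Pltp, the phospholipid transfer protein, was higher (3.74 ± 0.21, adjusted p = 4.95e-07), as was Mylip, a ubiquitin ligase (1.43 ± 0.23, adjusted p = 0.000650). Abca7, a further lipid transporter (-1.70 ± 0.26, adjusted p = 0.000442), and Scd2, a fatty acid desaturase (-1.62 ± 0.29, adjusted p = 0.00120), were lower. Without aortic library 1 the lower count of the list became 4.

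Of the 22 genes driven by the sterol-sensing factor SREBP2, 11 had too few reads for the test. Among the other 11, Insig1 (2.22 ± 0.34, adjusted p = 0.000467), Cyp51 (1.33 ± 0.39, adjusted p = 0.0241), Dhcr7 (1.68 ± 0.49, adjusted p = 0.0237) and Srebf2 (0.93 ± 0.20, adjusted p = 0.00439) were higher and 1 gene was lower. The 1 lower gene of 11 is near the 12.3% over all tested genes, of which 18.1% were higher. The list median was 0.18. In the fit of all 36 libraries 1 member of this list was higher and 0 were lower. The call of Cyp51 was lost when any one of aortic libraries 2, 3 and 4 or monocyte libraries 1, 3 and 4 was left out.

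Lipid droplet and fatty acid genes split as well, with 6 of 17 tested members higher and 4 lower. Over all tested genes the shares were 18.1% and 12.3%. In the fit of all 36 libraries 4 members were higher and 0 lower, so the split depended on the setting. Hilpda, an inhibitor of triglyceride breakdown, had 10.2, 24.7, 31.2 and 32.0 CPM in the aortic libraries, against 0, 3.18, 0 and 1.45 CPM in the monocyte libraries (4.78 ± 0.82, adjusted p = 0.000955, or 5.72 without monocyte library 2). Fabp5, a fatty acid carrier, was higher (1.90 ± 0.32, adjusted p = 0.000843). Dgat2, which makes triglycerides (-2.69 ± 0.63, adjusted p = 0.00696), and Lipe, the hormone-sensitive lipase (-1.64 ± 0.29, adjusted p = 0.00109), were lower. Cpt1a, which carries fatty acids into mitochondria, was lower in every aortic library and did not pass (-0.53 ± 0.22, adjusted p = 0.0915).

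Lysosomal genes were broadly but moderately higher. Of 38 tested members 26 passed as higher and 1 as lower, with a median log2 fold change of 0.92. Ctsd, which encodes the aspartic protease cathepsin D, had 1402, 1149, 1767 and 1393 CPM in the aortic libraries, against 308, 235, 146 and 149.6 CPM in the monocyte libraries. The groups did not overlap (2.95 ± 0.25, adjusted p = 7.74e-06). Ctsl, the cysteine protease cathepsin L, had 179.8, 330.4, 490.2 and 465 CPM, against 58.9, 25.5, 25.5 and 32.0 CPM (3.55 ± 0.38, adjusted p = 3.65e-05). Ctsk, a collagen-degrading cathepsin, had 28.9, 39.2, 67.0 and 35.7 CPM, against 1.32, 1.06, 1.19 and 0 CPM (5.63 ± 0.57, adjusted p = 2.39e-05). Atp6v0d2, a subunit of the proton pump, had 33.5, 139.5, 167 and 118 CPM, against 0, 0, 0 and 1.45 CPM, and its pooled ratio was 351, 95% counting interval 96.8 to 2899. Abundant lysosomal genes that did not pass included Ctss (0.22 ± 0.13, adjusted p = 0.248) and Lamp1 (0.15 ± 0.13, adjusted p = 0.441), and the one lower member was Psap, the precursor of the sphingolipid activators (-0.98 ± 0.17, adjusted p = 0.00121).

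The promoter of Ctsd is shown because many lysosomal promoters carry E-box elements, the sites of the TFEB family. The sequence covers 250 bases before to 50 bases after the start (RefSeq, GRCm38.p6, chr7:142387778-142388077, minus strand), and the capitals mark the core CACGTG.
Ctsd: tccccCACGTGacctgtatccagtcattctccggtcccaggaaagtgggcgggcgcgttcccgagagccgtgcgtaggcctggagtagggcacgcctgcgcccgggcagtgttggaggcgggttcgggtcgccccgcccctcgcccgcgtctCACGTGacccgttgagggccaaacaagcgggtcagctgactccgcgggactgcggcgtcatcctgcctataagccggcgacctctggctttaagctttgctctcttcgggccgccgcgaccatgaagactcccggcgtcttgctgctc
The core CACGTG, which reads the same on both strands, was found 2 times, 245 and 98 bases before the start. It was present in 11 of the 30 lysosomal genes that had a promoter sequence (36.7%), beside 8.09% of all 27025 genes. The longer CLEAR element of lysosomal genes, which contains that core, was found in none of the 30, beside 0.370% of all genes. A match of letters is a description and not a measured binding site.

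Antigen presentation genes were strongly higher. Of 10 tested members of the MHC class II list 8 were higher, none was lower, and the median was 2.64. H2-Aa, a chain of the class II molecule, had 4423, 2722, 3103 and 2929 CPM in the aortic libraries, against 269, 391, 241 and 437 CPM in the monocyte libraries. Aortic library 1 was the highest, and the groups did not overlap (3.49 ± 0.22, adjusted p = 8.55e-07). Cd74, the invariant chain, had 10494, 5216, 6819.8 and 6173 CPM, against 788, 1144, 683 and 1116 CPM (3.13 ± 0.23, adjusted p = 2.85e-06). H2-Eb1 (4.32 ± 0.24, adjusted p = 3.67e-07), H2-Ab1 (3.38 ± 0.25, adjusted p = 2.85e-06) and the co-stimulatory ligand gene Cd86 (3.03 ± 0.25, adjusted p = 5.04e-06) behaved alike in direction. Ciita, the regulator of class II transcription, overlapped at 179.8, 82.6, 71.2 and 70.5 CPM in the aortic libraries, against 90.0, 49.8, 42.1 and 63.9 CPM in the monocyte libraries, and did not pass (0.86 ± 0.34, adjusted p = 0.0771). The summed level of the list was 19626 CPM in aortic library 1 and 10683 to 13110 CPM in the others, against 1266 to 2096 CPM in monocytes.

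Complement genes were a second group with wide differences, with 12 of 16 tested members higher, 1 lower and a median of 2.33. C1qa, C1qb and C1qc, the 3 chains of the first complement component, lie next to each other on chromosome 4 (chr4:136880126-136886200 for C1qb, chr4:136889801-136892936 for C1qc and chr4:136895916-136898844 for C1qa, whole genes, GRCm38.p6). C1qa had 680.2, 465, 488 and 508 CPM in the aortic libraries, against 1.99, 3.18, 0 and 1.45 CPM in the monocyte libraries (8.61 ± 0.36, adjusted p = 9.03e-08). C1qc had 1752, 987, 1372 and 1388 CPM, against 5.29, 5.30, 3.56 and 5.81 CPM (8.27 ± 0.25, adjusted p = 1.19e-08). All 3 were apart without overlap, and C1qb had the smallest difference (7.47 ± 0.30, adjusted p = 8.25e-08). Vsig4, a complement receptor of resident macrophages, varied widely among the aortic libraries, at 187, 72.3, 94.0 and 29.2 CPM, against 0.662, 0, 0.593 and 0 CPM in the monocyte libraries (pooled ratio 223, 95% counting interval 61.5 to 1846). The lower member was C3, the central component of the cascade, at 158, 449, 73.7 and 74.1 CPM in the aortic libraries, against 1038, 950.3, 1334 and 994 CPM in the monocyte libraries (-2.33 ± 0.52, adjusted p = 0.00565).

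All 9 tested CC chemokines were higher in aortic macrophages (18.1% of all tested genes were), with a median log2 fold change of 6.86. Ccl5, Ccl11, Ccl17 and Ccl22 had too few reads for the test. Ccl7 and Ccl8 passed the filter through their aortic level alone. Ccl2, the main ligand of CCR2, had 242, 846, 1095 and 962 CPM in the aortic libraries, against 0.662, 6.36, 5.34 and 7.26 CPM in the monocyte libraries. Aortic library 1 was the lowest of the 4, and still far above the monocytes (7.54 ± 0.61, adjusted p = 4.93e-06). Ccl7, a further monocyte attractant, had 281, 543, 885 and 792 CPM, against no monocyte count (at least 1261-fold higher, adjusted p = 1.12e-05). Ccl8 had 544, 573, 971 and 634 CPM, against no monocyte count (at least 1299-fold higher, adjusted p = 1.04e-06). Ccl12 had 92.2, 127, 92.8 and 141 CPM, against 0, 1.06, 0 and 0 CPM (pooled ratio 643, 95% counting interval 115 to 25432). These 4 genes form a cluster on chromosome 11 (GRCm38.p6, whole genes: chr11:82035577-82037452 for Ccl2, chr11:82045712-82047525 for Ccl7, chr11:82101845-82103399 for Ccl12 and chr11:82115185-82116799 for Ccl8), and their similar sequences may share reads. Ccl24, an attractant of eosinophils, was higher as well, at 40.1 to 55.1 CPM in the aortic libraries, against 0 to 0.662 CPM in the monocyte libraries (pooled ratio 125, 95% counting interval 34.3 to 1035).

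Of 9 tested CXC chemokines 7 were higher and 1 was lower, with a median of 5.52. Cxcl2, a neutrophil attractant, had 2166, 3444, 3480.2 and 3803 CPM in the aortic libraries, against 3.97, 12.7, 22.0 and 42.9 CPM in the monocyte libraries (7.47 ± 0.54, adjusted p = 2.34e-06, or 8.09 without monocyte library 4). Cxcl1, its close relative, had 150.0, 493, 628 and 639 CPM, against 0, 0, 0.593 and 0.726 CPM (pooled ratio 1468, 95% counting interval 406 to 12124, adjusted p = 2.08e-06). Both chemokines were lowest in aortic library 1 and exceeded all monocyte values in every aortic library. Cxcl13, a B cell attractant, varied widely between the aortic libraries, at 303, 212, 57.0 and 25.9 CPM, against 0, 0, 0.593 and 0 CPM in the monocyte libraries (pooled ratio 669, 95% counting interval 119.8 to 26455). Pf4, platelet factor 4, was higher (5.52 ± 0.49, adjusted p = 9.35e-06, or 6.52 without monocyte library 1), and its neighbour Ppbp, another platelet chemokine, was lower (-4.72 ± 0.80, adjusted p = 0.000923, or -5.35 without aortic library 3). Cxcl9, an interferon-induced T cell attractant, overlapped between the groups and did not pass (0.62 ± 0.85, adjusted p = 0.641).

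The promoters of Cxcl1 and Cxcl2, neighbours on chromosome 5, are shown because both carry the same NF-κB element close to the start (RefSeq, GRCm38.p6, plus strand, 250 bases before to 50 after the start, at chr5:90890995-90891294 and chr5:90903649-90903948). Capitals mark the element, searched on both strands with any base allowed after GGGA.
Cxcl1: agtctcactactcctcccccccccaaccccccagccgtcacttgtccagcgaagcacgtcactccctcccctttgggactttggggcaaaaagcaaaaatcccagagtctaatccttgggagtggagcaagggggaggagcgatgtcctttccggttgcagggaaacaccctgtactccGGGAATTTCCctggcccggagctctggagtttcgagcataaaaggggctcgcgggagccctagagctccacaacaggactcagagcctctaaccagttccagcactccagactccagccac
Cxcl2: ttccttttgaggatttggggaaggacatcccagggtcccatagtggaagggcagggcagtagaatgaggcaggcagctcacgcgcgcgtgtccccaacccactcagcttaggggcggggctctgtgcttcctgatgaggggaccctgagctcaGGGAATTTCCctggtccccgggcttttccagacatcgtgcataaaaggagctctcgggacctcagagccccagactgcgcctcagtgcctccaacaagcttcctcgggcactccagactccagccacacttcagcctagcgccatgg
The element lies 71 bases before the start in Cxcl1 and 97 bases before it in Cxcl2. It was found in 3 of the 10 CXC chemokine genes with a promoter sequence (Cxcl1, Cxcl2 and Cxcl3), in 3 of 17 genes of the NF-κB list (Il6, Nfkbia and Nfkb2) and in none of 7 CC chemokine genes, beside 0.466% of all genes.

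Receptors and adhesion molecules that guide leukocytes between blood and tissue ran mostly the other way. Of 18 tested members 10 were lower and 5 higher, with a median of -0.92. Itgal, a chain of the integrin LFA-1, had 29.8, 22.4, 45.8 and 20.7 CPM in the aortic libraries, against 981, 1259, 934 and 1269 CPM in the monocyte libraries (-5.03 ± 0.26, adjusted p = 2.99e-07). Itgb7, an integrin chain of gut homing, was lower (-4.15 ± 0.55, adjusted p = 0.000175, or -4.74 without aortic library 4). Ccr2 had 624, 265, 365 and 364 CPM, against 2190.5, 1468, 1182 and 1214 CPM (-1.74 ± 0.27, adjusted p = 0.000466), and Cx3cr1, the fractalkine receptor, 84.8, 113, 156 and 124 CPM, against 245, 389, 306 and 429 CPM (-1.31 ± 0.22, adjusted p = 0.000905). For all of these the groups did not overlap, and the aortic levels of Ccr2 and Cx3cr1 remained well above 0. The sphingosine phosphate receptors S1pr1 and S1pr5 ran in opposite directions. S1pr1 had 112, 109.7, 104 and 111 CPM in the aortic libraries, against 2.65, 3.18, 1.19 and 1.45 CPM in the monocyte libraries (5.88 ± 0.29, adjusted p = 1.80e-07), while S1pr5 had 0, 1.40, 0 and 0 CPM, against 13.2, 45.6, 26.7 and 32.7 CPM (monocytes over aorta, pooled ratio 74.8, 95% counting interval 25.1 to 367). Itgb1 did not pass (0.17 ± 0.15, adjusted p = 0.463).

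Inflammatory genes were higher throughout the aortic libraries. In the NF-κB list 15 of 20 tested members passed as higher, none as lower, with a median of 2.17. Il1b, interleukin 1 beta, had 758, 739, 685 and 623 CPM in the aortic libraries, against 47.6, 39.2, 53.4 and 61.7 CPM in the monocyte libraries. The 4 aortic values were close together (3.96 ± 0.18, adjusted p = 1.23e-07). Tnf, tumour necrosis factor, had 226, 371, 439 and 562 CPM, against 4.63, 11.7, 22.0 and 16.7 CPM (5.02 ± 0.42, adjusted p = 6.84e-06). Il6 had 32.6, 49.9, 35.8 and 26.3 CPM, against 1.32, 2.12, 0.593 and 0 CPM (5.36 ± 0.58, adjusted p = 3.81e-05). Ptgs2, the inducible cyclooxygenase, was higher (4.34 ± 0.46, adjusted p = 3.12e-05), and so was Il1a (pooled ratio 435, 95% counting interval 120.1 to 3594). Nfkb1, which encodes a subunit of the factor itself, did not pass (-0.07 ± 0.18, adjusted p = 0.815).

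Immediate-early genes, which respond within minutes to growth factors, stress and handling, were higher in nearly the whole list, with 25 of 27 tested members passing and a median of 2.61. Egr1 had 1329.6, 1867, 1466 and 2203 CPM in the aortic libraries, against 5.96, 26.5, 22.5 and 37.0 CPM in the monocyte libraries (6.42 ± 0.42, adjusted p = 1.12e-06). Fosb had 1034, 991, 1623 and 1440.3 CPM, against 9.26, 52.0, 43.9 and 35.6 CPM (5.38 ± 0.42, adjusted p = 3.61e-06). Monocyte library 1 was the lowest for both, and no monocyte value reached an aortic one. Egr2 (6.63 ± 0.59, adjusted p = 9.87e-06, or 7.67 without monocyte library 4), Egr3 (5.98 ± 0.38, adjusted p = 8.95e-07) and Nr4a3 (6.41 ± 0.34, adjusted p = 3.40e-07) were higher, and Klf2 did not pass (-0.26 ± 0.30, adjusted p = 0.571). Heat-shock chaperones moved in the same direction, with 10 of 12 tested members higher, none lower and a median of 1.45. Hspa1b had 615, 1380.4, 696 and 1207 CPM in the aortic libraries, against 5.29, 64.7, 39.2 and 37.0 CPM in the monocyte libraries (4.98 ± 0.54, adjusted p = 4.16e-05), and shares reads with its near-identical copy Hspa1a (5.12 ± 0.47, adjusted p = 1.15e-05). Hsp90aa1 was higher by less (2.13 ± 0.24, adjusted p = 4.90e-05). Summed over each list, immediate-early genes reached 20228 to 25949 CPM in aortic macrophages, against 3298 to 7039 CPM in monocytes, and chaperones 7567 to 10913 CPM, against 3651 to 4138 CPM. The peritoneal macrophages, for which the labels' protocols describe no digestion, had 2244 to 3390 CPM for immediate-early genes and 2714 to 3802 CPM for chaperones. The part of digestion in the inflammatory and chemokine differences was not tested.

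The CRE element TGACGTCA, a site of CREB-type factors that reads the same on both strands, was found in the promoters of 4 of 23 immediate-early genes with a sequence (Dusp1, Btg2, Maff and Ppp1r15a), beside 2.03% of all genes. The AP-1 element TGANTCA was in none of the 23, beside 8.97% of all genes. The promoter of Dusp1 is printed as the example (RefSeq, GRCm38.p6, chr17:26508423-26508722, minus strand), with the CRE, 143 bases before the start, in capitals.
Dusp1: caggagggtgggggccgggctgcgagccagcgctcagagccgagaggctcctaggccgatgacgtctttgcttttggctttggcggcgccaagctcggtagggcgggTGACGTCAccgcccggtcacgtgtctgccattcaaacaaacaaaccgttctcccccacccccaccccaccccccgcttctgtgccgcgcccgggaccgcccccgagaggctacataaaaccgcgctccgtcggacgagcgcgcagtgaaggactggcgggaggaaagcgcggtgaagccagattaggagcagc

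Growth factors and enzymes that remodel matrix were largely higher. Of 22 tested growth factors and receptors 13 were higher and 4 lower, with a median of 1.77. Igf1, insulin-like growth factor 1, had 292, 787, 634 and 666 CPM in the aortic libraries, against 3.31, 6.36, 5.34 and 1.45 CPM in the monocyte libraries (7.38 ± 0.44, adjusted p = 6.63e-07). Pdgfc, a platelet-derived growth factor, had 102, 127, 107 and 88.3 CPM, against 0, 0, 0.593 and 0 CPM (pooled ratio 585, 95% counting interval 105 to 23115). Hbegf, an epidermal growth factor relative, spread from 11.2 to 133 CPM over the aortic libraries, with library 1 lowest, against 0 to 0.593 CPM in monocytes (pooled ratio 449, 95% counting interval 80.3 to 17754). Among 18 tested matrix proteases and inhibitors 12 were higher and 2 lower, with a median of 2.49. Mmp13, a collagenase, had 71.7, 42.5, 36.2 and 36.1 CPM in the aortic libraries, against 0, 1.06, 0 and 0 CPM in the monocyte libraries (pooled ratio 235, 95% counting interval 41.8 to 9294). Plau, the urokinase, was higher (4.80 ± 0.42, adjusted p = 8.61e-06). Mmp8, a neutrophil collagenase, was lower, at 0, 0, 0.832 and 0.405 CPM in the aortic libraries, against 255, 41.4, 54.0 and 60.3 CPM in the monocyte libraries (monocytes over aorta, pooled ratio 293, 95% counting interval 99.7 to 1424). Adam10 and Adam17, membrane sheddases, did not pass (0.11 ± 0.19, adjusted p = 0.730 and -0.16 ± 0.14, adjusted p = 0.445).

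Genes for the removal of dying cells were more often higher than lower. The bridging protein genes and receptors Gas6, Timd4, Stab1 and Mertk, given above, stood among 9 higher members of 16 tested, with a median of 0.95, and 3 were lower. Itgb3, the integrin chain that binds the bridging protein MFG-E8, had 0, 0.933, 2.50 and 2.84 CPM in the aortic libraries, against 43.0, 49.8, 25.5 and 30.5 CPM in the monocyte libraries (-4.14 ± 0.57, adjusted p = 0.000208). Rac1, which drives engulfment in all phagocytes, was lower in every aortic library and did not pass (-0.30 ± 0.16, adjusted p = 0.171).

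In the alternative activation list 11 of 13 tested members were higher and 1 lower, with a median of 3.05. Mgl2, a lectin receptor, had 672, 472, 398 and 564 CPM in the aortic libraries, against 1.99, 1.06, 5.34 and 1.45 CPM in the monocyte libraries (7.74 ± 0.35, adjusted p = 1.28e-07, or 8.48 without monocyte library 3). Il10, the anti-inflammatory cytokine, had 48.5, 176, 253 and 167 CPM, against 0, 5.30, 0 and 0 CPM (7.52 ± 0.85, adjusted p = 5.06e-05, or 11.25 without monocyte library 2), so that all monocyte reads were in library 2. Arg1 is among 4 members with too few reads for the test. Chil3, a chitinase-like protein used as a marker of alternative activation and also made by classical monocytes, was the lower member, at 0, 8.87, 5.83 and 4.05 CPM in the aortic libraries, against 2253, 2486, 4666 and 2139.7 CPM in the monocyte libraries (-8.92 ± 0.53, adjusted p = 6.42e-07).

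Iron handling and antioxidant genes rose in part. Of 17 tested iron and heme genes 9 were higher and 1 was lower, with a median of 0.98. Hmox1, heme oxygenase 1, had 475, 664, 1015 and 733 CPM in the aortic libraries, against 76.8, 103, 88.4 and 112 CPM in the monocyte libraries (3.12 ± 0.24, adjusted p = 3.72e-06). Cp, the copper-carrying ferroxidase ceruloplasmin (7.32 ± 0.48, adjusted p = 1.16e-06, or 7.95 without monocyte library 2), and Tfrc, the transferrin receptor (3.06 ± 0.32, adjusted p = 3.09e-05), were higher. Hp, haptoglobin, was the lower member, at 5.59, 0, 0.416 and 0 CPM in the aortic libraries, against 472, 300.1, 372 and 245 CPM in the monocyte libraries (-8.30 ± 0.62, adjusted p = 2.85e-06, or -10.53 without aortic library 1), so that the ligand Hp and its receptor Cd163 ran in opposite directions. Of 15 tested genes of the NRF2 antioxidant response 8 were higher and 4 lower. Srxn1, sulfiredoxin, was higher (4.04 ± 0.63, adjusted p = 0.000492), while Gsr, glutathione reductase, had 91.3, 49.0, 21.6 and 17.0 CPM in the aortic libraries, against 1108, 1016, 1067 and 983 CPM in the monocyte libraries (-4.45 ± 0.44, adjusted p = 2.11e-05). The pentose phosphate enzyme gene Taldo1 was lower as well (-1.89 ± 0.16, adjusted p = 6.57e-06).

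Among 34 tested transcription factors 16 were higher and 6 lower, with a median of 0.44. Maf, a factor of macrophage differentiation, had 446, 783, 479 and 713 CPM in the aortic libraries, against 58.9, 80.6, 57.0 and 77.7 CPM in the monocyte libraries (3.34 ± 0.23, adjusted p = 1.69e-06). Bhlhe41 had 32.6, 65.8, 39.1 and 51.9 CPM, against 0.662, 0, 0 and 0.726 CPM (pooled ratio 136, 95% counting interval 37.3 to 1125). Id3, an inhibitor of basic helix-loop-helix factors (2.85 ± 0.39, adjusted p = 0.000207), and Mitf, a relative of TFEB that binds lysosomal promoters (2.56 ± 0.29, adjusted p = 4.98e-05), were higher. Cebpb did not pass (0.19 ± 0.23, adjusted p = 0.594). The core GAGGAA of the macrophage factor PU.1, searched on both strands, was in the promoters of 5 of 10 macrophage identity genes and 8 of 16 classical monocyte genes with a sequence, beside 31.3% of all genes. Pattern receptors divided evenly, with 9 of 26 tested Toll-like and lectin receptors higher and 8 lower. Tlr3, a receptor for double-stranded RNA, was higher (2.74 ± 0.40, adjusted p = 0.000354), as were the fungal lectin receptors Clec4n (2.36 ± 0.38, adjusted p = 0.000642) and Clec4d (2.36 ± 0.25, adjusted p = 3.62e-05). Trem3 was lower (-4.85 ± 0.80, adjusted p = 0.000757, or -5.83 without aortic library 2), while Tlr7 (-0.34 ± 0.13, adjusted p = 0.0658) and Tlr8 (0.53 ± 0.19, adjusted p = 0.0606) did not pass.

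Interferon-stimulated genes were more often lower, with 10 of 27 tested members lower, 3 higher and a median of -0.73. Oas3, an antiviral oligoadenylate synthetase, had 8.39, 51.3, 30.0 and 30.0 CPM in the aortic libraries, against 221, 252, 184 and 200.5 CPM in the monocyte libraries (-2.59 ± 0.37, adjusted p = 0.000272). Zbp1, a sensor of unusual nucleic acid, had 28.0, 31.3, 23.7 and 33.6 CPM, against 119.8, 163, 135 and 159 CPM (-2.11 ± 0.19, adjusted p = 1.00e-05). Both were below the monocytes in every aortic library. Oasl1 was higher in the test at 4.66, 61.1, 78.2 and 75.4 CPM in the aortic libraries, against 17.2, 22.3, 18.4 and 18.9 CPM in the monocyte libraries (1.74 ± 0.59, adjusted p = 0.0446), with aortic library 1 below all monocytes, and 12 of 19 alternative settings lost this call. Oas2 (0.43 ± 0.29, adjusted p = 0.319) and Ifih1 (-0.08 ± 0.16, adjusted p = 0.743) did not pass. The lower count was 15 with aortic library 1 and monocyte library 3 left out.

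**Figure D3:**
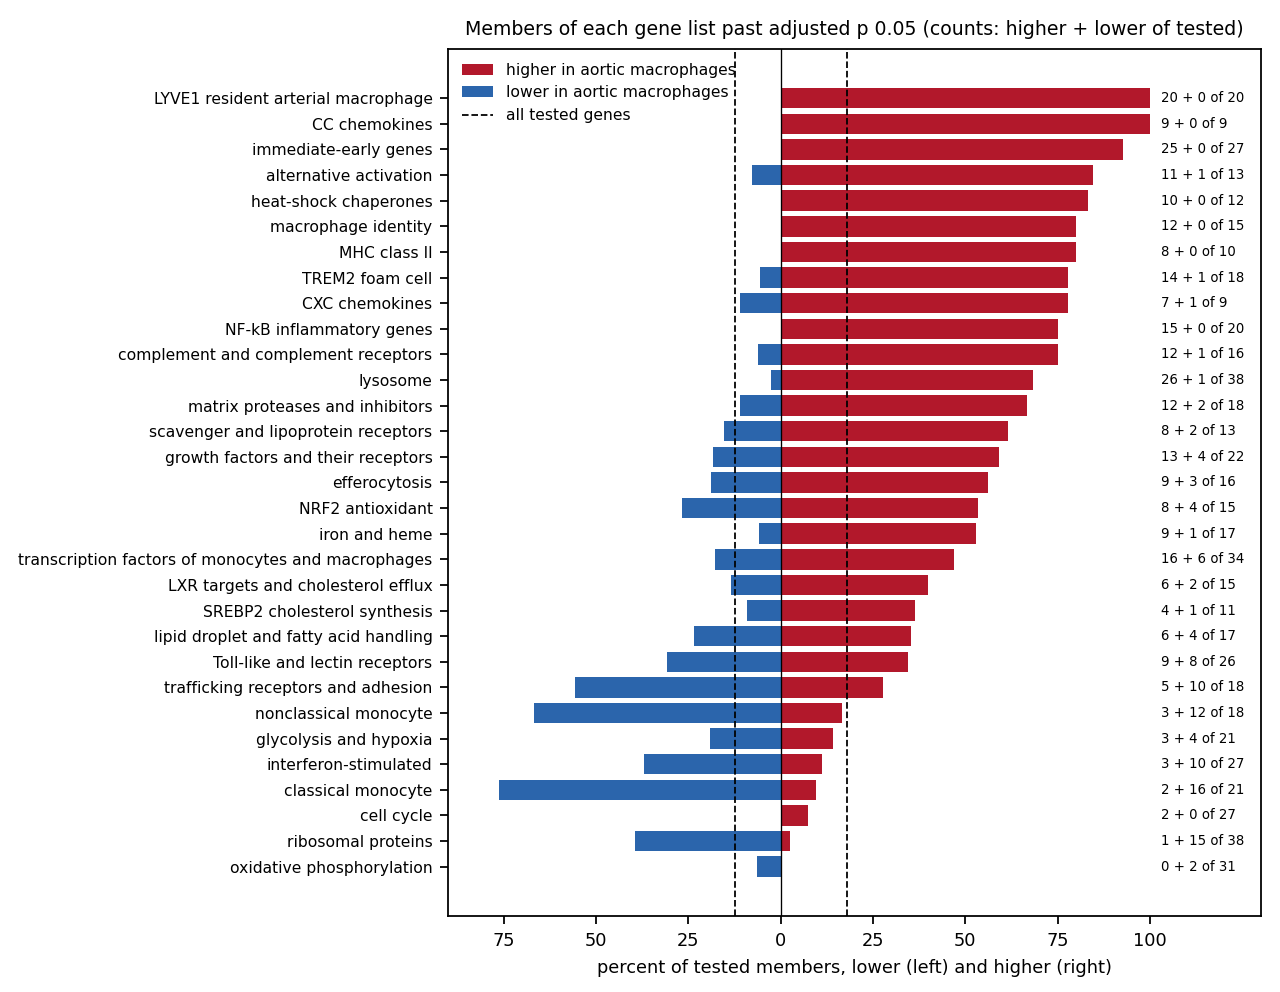
Percent of the tested members of each gene list that passed as higher or as lower in advanced aortic macrophages than in advanced monocytes (edgeR, adjusted p under 0.05), with the number tested beside each list. Dashed lines give the shares over all tested genes, 18.1% higher and 12.3% lower. All tested LYVE1 and CC chemokine members were higher, while 16 of 21 classical monocyte members were lower.

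Genes of classical monocytes and of neutrophil granules were among those that fell furthest. In the classical monocyte list 16 of 21 tested members were lower and 2 higher, with a median of -2.30. Plac8, a small protein of circulating myeloid cells, had 16.8, 11.7, 18.3 and 19.4 CPM in the aortic libraries, against 2118, 2343, 1714 and 2289 CPM in the monocyte libraries. The spread was small on both sides (-6.80 ± 0.20, adjusted p = 1.19e-08). Ly6c2 fell too (-7.24 ± 0.78, adjusted p = 3.86e-05, or -9.89 without aortic library 1), with most of its aortic reads in library 1. Vcan, the proteoglycan versican, had 11.2, 1.40, 9.16 and 10.1 CPM, against 1616, 204, 361 and 320.3 CPM (-6.16 ± 0.79, adjusted p = 0.000139, or -5.08 without monocyte library 1). Fn1, fibronectin, had 4278, 1496, 2294 and 1934 CPM, against 2579, 2584, 3112 and 2903 CPM, and did not pass (0.00 ± 0.26, adjusted p = 0.995), nor did Thbs1, thrombospondin 1 (0.94 ± 0.37, adjusted p = 0.0833). The 2 higher members were F13a1, a clotting factor chain (1.54 ± 0.22, adjusted p = 0.000254), and Lyz1, which may share reads with Lyz2 (3.34 ± 0.45, adjusted p = 0.000185).

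In the nonclassical list 12 of 18 tested members were lower and 3 higher, with a median of -2.68. Ace, the angiotensin-converting enzyme, had 80.1, 7.93, 9.99 and 11.7 CPM in the aortic libraries, against 473, 1212, 658 and 1051 CPM in the monocyte libraries. Aortic library 1 was the highest aortic value, and every aortic value was below every monocyte value (-4.97 ± 0.67, adjusted p = 0.000199, or -6.21 without aortic library 1). Treml4, a receptor of patrolling monocytes and spleen phagocytes, was lower (-4.92 ± 0.59, adjusted p = 8.20e-05), as was Pglyrp1, a peptidoglycan-binding protein (-6.90 ± 0.60, adjusted p = 8.23e-06, or -7.57 without aortic library 3). Bcl2, a survival factor (0.29 ± 0.38, adjusted p = 0.619), and Hes1, a target of Notch (-0.46 ± 0.53, adjusted p = 0.570), did not pass.

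Granule genes of neutrophils and their precursors were abundant in the monocyte libraries and near 0 in the aortic ones. S100a9, a chain of calprotectin, had no count in the 4 aortic libraries, against 2656, 5668, 15386 and 1963 CPM in the monocyte libraries. It was at least 18567-fold higher in monocytes than a floor of 3 counts over the aortic group (adjusted p = 7.19e-05), or at least 8487-fold without monocyte library 3. Its partner S100a8, a neighbour on chromosome 3, had 0, 1.40, 0.832 and 0.810 CPM, against 2083, 4099, 11269 and 1390.2 CPM (-12.14 ± 0.98, adjusted p = 4.92e-06, or -11.20 without monocyte library 3). Ngp, a neutrophil granule protein, had no aortic count, against 1277, 2779.7, 8397 and 968 CPM (adjusted p = 0.000137). Ltf, lactoferrin, had none, against 522, 1074, 3652 and 383 CPM (adjusted p = 0.000278). Elane, neutrophil elastase, had none, against 45.7, 96.5, 213 and 31.2 CPM (adjusted p = 0.000470). Monocyte library 3 was the highest of the 4 for each of these genes.

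All 8 tested genes of the progenitor granule list were lower, and 6 of 8 in the neutrophil list. The neutrophil list's one higher member was Mmp9, gelatinase B, which macrophages also make (2.65 ± 0.44, adjusted p = 0.000865). The neutrophil markers, Mmp9 included, summed to 87.0 to 193 CPM in the aortic libraries. In monocyte libraries 1 to 4 they summed to 5562, 10781, 28425 and 3720 CPM. The summed progenitor granule genes ran from 0.405 to 4.66 CPM in the aortic libraries, against 1662 to 14195 CPM in the monocyte libraries. S100a9, Cxcr2, Stfa2l1, Wfdc21, Mrgpra2a and Mrgpra2b had no aortic count. With a separate spread for each group in limma-voom, the lower counts were 2 of 8 and 1 of 8, and S100a9 (adjusted p = 0.233), S100a8 (0.299), Ngp (0.245), Ltf (0.245) and Elane (0.0947) no longer passed. In the other settings their highest adjusted p was 0.0295, except for S100a8 at 0.0590 with quality weights per library. Whether these reads come from monocytes, from neutrophils or from precursors in the sorted monocyte samples was not tested. The part of these reads in the other lower genes was not tested either.

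**Figure D4:**
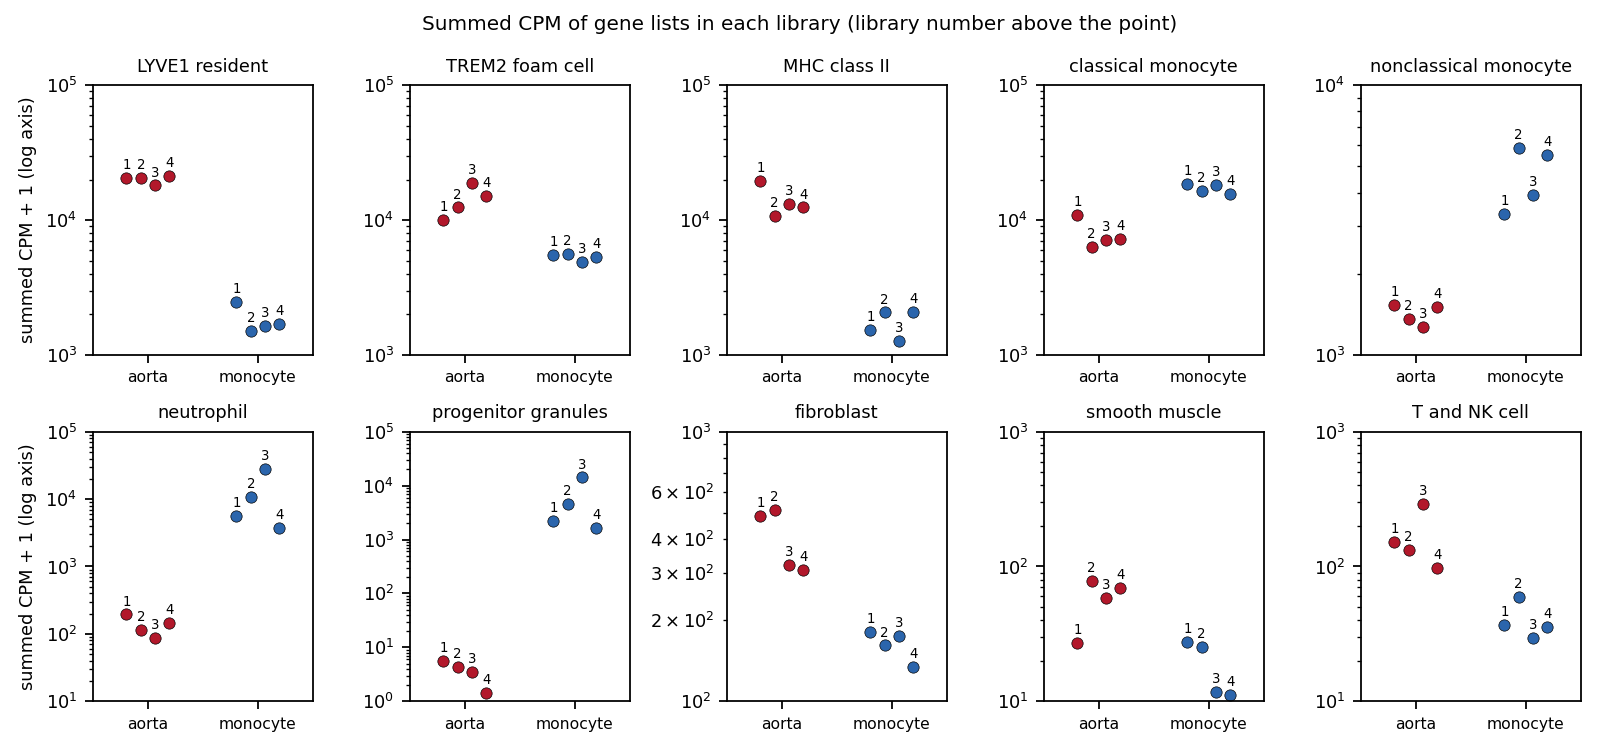
Summed level of 10 gene lists in each library, as CPM + 1 on a log axis, with the 4 advanced aortic macrophage libraries beside the 4 advanced monocyte libraries. The LYVE1, TREM2 and MHC class II sums are higher in every aortic library, and the neutrophil and progenitor granule sums span a wide range over the monocyte libraries, with library 3 at the top (28425 CPM for neutrophil markers).

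Genes of oxidative phosphorylation and ribosomal proteins had lower summed levels in aortic macrophages, and few cell cycle genes passed. Of 31 tested genes of oxidative phosphorylation none was higher and 2 were lower, so 6.45% were called, beside 30.4% of all tested genes. The lower ones were Atp5c1 (-0.79 ± 0.16, adjusted p = 0.00293) and Atp5a1 (-0.48 ± 0.15, adjusted p = 0.0282), and the list median was -0.21. The list summed to 1536 to 2001 CPM in the aortic libraries, against 2326 to 2519 CPM in the monocyte libraries. The call of Atp5a1 was lost in 6 settings, among them without aortic library 2 or monocyte library 1, 3 or 4, with an adjusted p of up to 0.325. Among 38 ribosomal protein genes 15 were lower, beside 12.3% over all tested genes, and 1 higher, with a median of -0.29, and 27 of 38 were lower in every aortic library, beside 23.4%. They summed to 9134 to 10719 CPM in the aortic libraries, against 12526 to 14213 CPM in the monocyte libraries. Single differences were small, such as Rplp0 (-0.69 ± 0.16, adjusted p = 0.00691) and Rpl18 (-0.72 ± 0.16, adjusted p = 0.00543), and reads of these genes may be shared with pseudogenes. Rplp1 was the higher one (0.96 ± 0.18, adjusted p = 0.00183). In the glycolysis and hypoxia list 3 of 21 were higher and 4 lower, among them Pfkfb3, a regulator of glycolysis (1.96 ± 0.31, adjusted p = 0.000589), and Pgk1 (-1.36 ± 0.26, adjusted p = 0.00192). Its called share of 33.3% was near the 30.4% over all tested genes. Without aortic library 1 the count higher was 6. Of 27 tested cell cycle genes Pcna (0.71 ± 0.18, adjusted p = 0.0110) and Mcm6 (1.03 ± 0.27, adjusted p = 0.0122) were higher and none was lower. This called share of 7.41% was below the 30.4% over all tested genes. The proliferation marker Mki67 had 150.0, 289, 257 and 139 CPM in the aortic libraries, against 271, 275, 920.2 and 113 CPM in the monocyte libraries, where library 3 stood highest, and did not pass (-0.76 ± 0.54, adjusted p = 0.337).

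Markers of other aortic cell types were low but not absent in the aortic libraries. Fibroblast markers summed to 307 to 510 CPM in the aortic libraries, against 133 to 180 CPM in the monocyte libraries without overlap, and 4 of 6 tested members were higher. Col3a1, a collagen chain, had 116, 47.1, 26.2 and 28.8 CPM, against no monocyte count, as had Lum, Col1a2, Dpt and Mfap5. Dcn, decorin, had 198, 138, 47.4 and 39.3 CPM in the aortic libraries, against 0, 0, 0 and 0.726 CPM in the monocyte libraries. Aortic libraries 1 and 2 were the highest for both. Pi16, listed as a fibroblast marker with reads in the monocyte libraries, was lower (-4.14 ± 0.61, adjusted p = 0.000359, or -5.20 without aortic library 2). Smooth muscle markers summed to 26.1 to 76.5 CPM, against 10.2 to 26.5 CPM, and 8 of 9 had too few reads for the test. Endothelial markers summed to 27.5 to 37.3 CPM, against 21.4 to 47.6 CPM, which overlapped.

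Of the T and NK cell markers 10 of 13 had too few reads, Cd3d, Cd3e and Cd3g among them, while Cd4 (4.45 ± 0.69, adjusted p = 0.000522) and Il7r (3.95 ± 0.41, adjusted p = 2.95e-05), which macrophages can also make, were higher. The list summed to 96.8 to 292 CPM in the aortic libraries, against 28.5 to 58.3 CPM in the monocyte libraries, with Gzmb, Ncr1 and Klrb1c at 0 in the aorta. B cell markers summed to 30.8 to 45.7 CPM in the aortic libraries, against 13.6 to 27.1 CPM, and dendritic cell markers to 157 to 308 CPM, against 75.4 to 106 CPM. Siglech (3.44 ± 0.53, adjusted p = 0.000505) and Cd209a (2.49 ± 0.44, adjusted p = 0.00128), used here as dendritic cell markers, were higher and Flt3 was lower (-2.29 ± 0.73, adjusted p = 0.0354, or -3.59 without aortic library 4). The call of Flt3 was lost in 7 settings, among them without aortic library 2 or 3 or any one monocyte library, with an adjusted p of up to 0.129. Mast cell and basophil markers reached 95.0 CPM in aortic library 1 and at most 9.57 CPM in the other aortic libraries, against 0.662 to 8.48 CPM in monocytes. The part of these cells in the differences above was not tested.

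Set beside peritoneal macrophages of the same stage, the genes named here gave several kinds of pattern. Against the peritoneum 2573 of 9285 genes passed (27.7%), or 4150 without aortic library 1, and this comparison uses the same 4 aortic libraries as the one with monocytes. The C1q genes, Mertk and Lpl, all far above monocytes, did not pass the test against peritoneal macrophages. C1qa had 535 ± 98.3 CPM in aortic macrophages and 543 ± 80.2 CPM in peritoneal macrophages (SD, n = 4 each), a log2 fold change of -0.12 ± 0.16, adjusted p = 0.643. Mertk had 228 ± 25.2 CPM in aortic macrophages and 173 ± 17.6 CPM in peritoneal macrophages (0.31 ± 0.13, adjusted p = 0.107). C1qb (0.20 ± 0.16, adjusted p = 0.412), C1qc (0.04 ± 0.17, adjusted p = 0.876), Pltp (-0.23 ± 0.14, adjusted p = 0.275) and Lpl (-0.03 ± 0.26, adjusted p = 0.956) did not pass either.

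Other genes were high in the aorta over both populations. Mrc1 had 4298 ± 682 CPM in aortic macrophages and 41.7 ± 22.9 CPM in peritoneal macrophages (6.58 ± 0.39, adjusted p = 3.72e-07). Spp1 had 3108 ± 1894 CPM in aortic macrophages and 3.65 ± 1.82 CPM in peritoneal macrophages (9.62 ± 0.75, adjusted p = 2.40e-06). Il1b had 701 ± 60.9 CPM in aortic macrophages and 0.249 ± 0.290 CPM in peritoneal macrophages, where 2 reads were counted. Tnf (8.78 ± 0.48, adjusted p = 1.99e-07), Cxcl2 (6.78 ± 0.24, adjusted p = 1.17e-08), Egr1 (6.94 ± 0.47, adjusted p = 8.29e-07), Cd163 (6.88 ± 0.39, adjusted p = 2.61e-07), Folr2 (6.30 ± 0.34, adjusted p = 1.73e-07) and H2-Aa (6.08 ± 0.33, adjusted p = 2.01e-07) were higher as well. Further genes were above monocytes and below peritoneal macrophages. Timd4 had 80.1 ± 46.3 CPM in aortic macrophages and 471 ± 100.2 CPM in peritoneal macrophages (-2.68 ± 0.33, adjusted p = 8.61e-05), and Vsig4 (-2.82 ± 0.44, adjusted p = 0.000509), Cxcl13 (-3.83 ± 0.65, adjusted p = 0.000847) and S1pr1 (-0.82 ± 0.14, adjusted p = 0.00100, and an adjusted p of 0.583 in the fit of all 36 libraries) were lower too. Lyz2 (-2.26 ± 0.17, adjusted p = 1.59e-06) and Fn1 (-3.95 ± 0.30, adjusted p = 1.87e-06), which did not pass against monocytes, were lower than in the peritoneum.

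The same difference between aortic macrophages and monocytes was compared between the advanced and the early stage, as an interaction of stage and population. Of 10239 genes 127 passed (1.24%), 98 of them with a more positive difference at the advanced stage (0.957%) and 29 with a more negative one (0.283%). A fit with a separate spread per group in limma-voom called 6 genes, and DESeq2 called 453. Leaving out single libraries moved the count as well. It was 227 without advanced aortic library 1 and 70 without advanced aortic library 3, and 63, 64, 69 and 66 without advanced monocyte libraries 1 to 4. Without early aortic libraries 1 to 4 it was 268, 278, 291 and 207, and without early monocyte libraries 1, 2 and 4 it was 82, 43 and 70. The biological coefficient of variation was 49.8% in early aortic macrophages, 34.6% in advanced ones and 17.1 to 17.5% in the monocyte groups. Thinned to 942899 reads, the early aortic libraries held 9051 to 10268 detected genes, against 11372 to 11833 in the early monocyte libraries. Advanced aortic library 1 held 9144 and the other advanced aortic libraries 11973 to 12355. The part of this gap in the low or absent early aortic counts given below was not tested. Genes above that passed with a more positive difference at the advanced stage include Ctsd (1.46 ± 0.31, adjusted p = 0.0213), H2-Eb1 (1.70 ± 0.32, adjusted p = 0.00847), S1pr1 (3.73 ± 0.63, adjusted p = 0.00500), Mmp12 (5.96 ± 1.27, adjusted p = 0.0211) and Lgals3 (1.61 ± 0.38, adjusted p = 0.0400). Each of these calls was lost in some of 27 settings, 7 for Ctsd, 2 for H2-Eb1, 2 for S1pr1, 7 for Mmp12 and 18 for Lgals3. Single libraries ended the call of Ctsd (advanced aortic 3, advanced monocyte 3 or 4, early monocyte 2), of Mmp12 (advanced monocyte 1 or 3, early monocyte 2 or 4) and of Lgals3 (any monocyte library and 5 aortic ones). Ctsk, at 28.9, 39.2, 67.0 and 35.7 CPM in advanced aortic macrophages, had no count in the early aortic libraries. Mrc1 (0.23 ± 0.25, adjusted p = 0.794) did not pass. Retnla had 1046, 831, 991 and 674 CPM in early aortic macrophages, and since no monocyte library of either stage had a count, its difference between the stages could not be estimated.

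Genes with the smallest interaction p follow, all but Ubxn1 and Ccr3 with their values in all 4 groups. Nr4a3, an orphan nuclear receptor of the immediate-early class, had 183, 357, 399 and 392 CPM in advanced aortic macrophages and 3.31, 5.30, 4.15 and 5.08 CPM in advanced monocytes. At the early stage it had 21.3, 42.7, 60.5 and 41.6 CPM in aortic macrophages and 6.55, 5.67, 6.30 and 7.08 CPM in monocytes. The advanced minus early difference of the log2 fold changes was 3.56 ± 0.50, adjusted p = 0.00104, with an adjusted p of 0.0759 in the fit of all 36 libraries. Cd5l, a secreted inhibitor of apoptosis, had 58.7, 53.7, 104 and 107 CPM in advanced aortic macrophages and 7.94, 10.6, 6.53 and 15.3 CPM in advanced monocytes. At the early stage it had 2.03, 0, 0 and 0 CPM in aortic macrophages and 17.6, 47.2, 13.2 and 10.2 CPM in monocytes (8.27 ± 1.06, adjusted p = 0.000498, or 11.40 without early aortic library 1 and 7.56 without early monocyte library 2). Without early aortic library 1 no early aortic read of Cd5l is left, so the value of 11.40 depends on the prior count. Vcam1, an adhesion molecule, had 318, 277, 181 and 309.9 CPM in advanced aortic macrophages and 17.9, 47.7, 33.2 and 27.6 CPM in advanced monocytes. Its early values were 81.8, 79.3, 88.3 and 89.2 CPM in aortic macrophages and 67.0, 95.4, 47.9 and 41.2 CPM in monocytes (2.69 ± 0.41, adjusted p = 0.00240). Vcam1 was thus higher in each advanced aortic library than in any other of these libraries.

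Ly6a, which encodes the surface antigen Sca-1, had 69.9, 45.3, 72.4 and 79.4 CPM in advanced aortic macrophages and 12.6, 4.24, 2.37 and 7.99 CPM in advanced monocytes. At the early stage it had 0.508, 0.762, 0.761 and 0 CPM in aortic macrophages and 16.6, 50.5, 7.56 and 11.5 CPM in monocytes (8.53 ± 1.03, adjusted p = 0.000288, or 7.67 without early monocyte library 2). Ndrg1, a gene induced by stress and low oxygen, had 17.7, 55.5, 134 and 97.6 CPM in advanced aortic macrophages and 68.8, 72.1, 62.9 and 47.9 CPM in advanced monocytes. At the early stage it had 1.02, 0, 0 and 3.51 CPM in aortic macrophages and 77.6, 57.2, 93.2 and 74.8 CPM in monocytes (6.24 ± 0.91, adjusted p = 0.00142, or 7.89 without early aortic library 4). The early aortic levels of Cd5l, Ly6a and Ndrg1 were below the early monocyte levels, while the advanced aortic levels of Cd5l and Ly6a were above the advanced monocyte levels. With a separate spread per group the adjusted p was 0.152 for Cd5l, 0.172 for Ly6a, 0.230 for Ndrg1 and 0.0549 for Vcam1, and these 4 calls were also lost with quality weights per library (0.104, 0.112, 0.127 and 0.0511). Vcam1 was lost in the fit of all 36 libraries too (0.0693).

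In the other direction, Retnlg, a resistin-like gene of neutrophils and monocytes next to Retnla on chromosome 16, had 0, 0, 2.08 and 0 CPM in advanced aortic macrophages and 145, 456, 128 and 114 CPM in advanced monocytes. At the early stage it had 112, 204, 77.6 and 91.7 CPM in aortic macrophages and 13.6, 11.8, 0.630 and 14.2 CPM in monocytes (-11.78 ± 1.04, adjusted p = 3.06e-06, or -15.17 without advanced aortic library 3 and -11.15 without advanced monocyte library 2). Without advanced aortic library 3 no advanced aortic read of Retnlg is left, so the value of -15.17 depends on the prior count. Retnlg was thus above the monocytes in every early aortic library and below them in every advanced one. Filip1l had 129.5, 115, 75.3 and 101 CPM in advanced aortic macrophages and 483, 585, 392 and 575 CPM in advanced monocytes. At the early stage it had 267, 519, 400.2 and 410.2 CPM in aortic macrophages and 479, 415, 440.1 and 486 CPM in monocytes (-2.07 ± 0.28, adjusted p = 0.000674). Ubxn1 (-3.08 ± 0.43, adjusted p = 0.00104, and an adjusted p of 0.0671 in the fit of all 36 libraries) and the eosinophil chemokine receptor gene Ccr3 (-6.79 ± 1.04, adjusted p = 0.00240, or -8.01 without advanced aortic library 2 and -6.06 without advanced monocyte library 2) also had a more negative difference. With a separate spread the adjusted p of Retnlg was 0.0549 and that of Ccr3 was 0.0780, and in the other settings it was at most 0.00723 for Retnlg and 0.0270 for Ccr3.

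**Figure D5:**
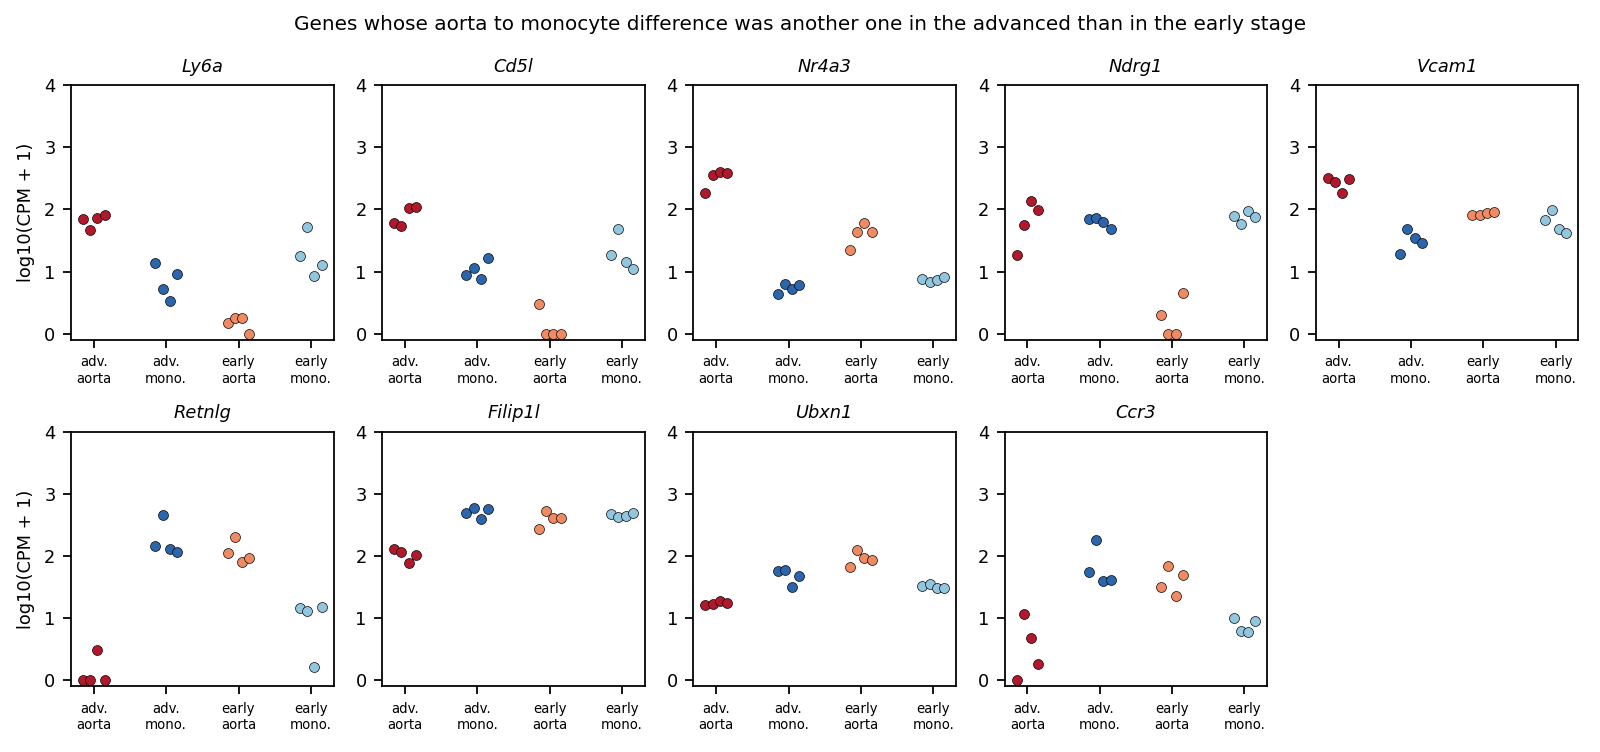
Level per library, as log10 (CPM + 1), of 9 genes among those with the smallest interaction p, in advanced aortic macrophages, advanced monocytes, early aortic macrophages and early monocytes. Cd5l and Ly6a lie high in the advanced aortic libraries and at or near 0 in early ones, while Retnlg lies near 0 in the advanced aortic libraries and high in the early ones.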

How the data were processed

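Each library's deposited table holds raw read counts for 24421 genes, made by the authors with STAR and featureCounts on mm10, per the submitters' processing notes. Versions, the annotation, the strand setting and the handling of reads shared by similar genes are not given in the sources used here, so overlapping genes and close copies (Lyz1 and Lyz2, Hspa1a and Hspa1b, Ly6c1 and Ly6c2, the Cd209 genes, ribosomal protein genes) are uncertain. RNA was taken from cells sorted into lysis buffer, and Ovation SoLo libraries were sequenced paired-end on a NextSeq500, as the labels' protocols state. The molecule is labelled polyA RNA.

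The counts were tested as deposited with edgeR 4.0.16 (R 4.3.3): normalisation by trimmed mean of M values, filterByExpr, a quasi-likelihood F test, two-sided, and Benjamini-Hochberg adjustment over all genes tested, with a call at an adjusted p under 0.05. Each comparison was fitted on its own groups, and the interaction of stage and population on 16 libraries. Standard errors were obtained by dividing each absolute log2 fold change by the root of its F value. Bounds given as at least a fold use a floor of 3 counts over a group. Pooled ratios compare the counted reads of the groups over their summed depth, and their intervals cover counting error only. Neither covers the spread between libraries. Among the 36 libraries no pair of files held identical values. The code was tested on simulated data with known changes. Alternatives were other normalisation factors, no filter, DESeq2 1.42.0, limma 3.58.1 (voom), a fit of all 36 libraries, thinning to equal depth, leaving out Rn45s, a replicate block and leaving out libraries.

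Text genes follow a rule, and some genes it takes are not reported here. Named were the 12 genes furthest apart in each direction (called, no overlap, at least 50 CPM), from each list up to 5 called members (at least 20 CPM) and up to 2 that did not pass, and 5 interaction genes in each direction. Adgre1, Apoe, Ccr2, Csf1r, Cx3cr1, Trem2, Anxa2, Scarb1, Psap, C3, Mmp9, Dhcr7, F13a1, Lyz1 and the genes of the last section were added after their values were seen. The members and all 42 lists were chosen with earlier results of these data known. Coordinates and promoters are from RefSeq GRCm38.p6, which matched 23204 gene symbols.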

Additional observations from a re-analysis of the deposited data

Results flagged for a closer look

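Aortic library 1 had 9144 detected genes at equal depth, far below the 11973 to 12355 of the other advanced aortic libraries, a gap larger than Dixon's limit for 4 values. Chil3 was 4666 CPM in advanced monocyte library 3, above the 2139.7 to 2486 CPM of the other monocyte libraries by the same measure. Chance gives such a gap in about 1 of 20 groups, and it was seen in 40 of the 434 groups of 4 libraries examined over the 217 named genes. Their part in the results was not tested beyond leaving those libraries out.

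The difference between aortic macrophages and monocytes was itself different at the advanced and the early stage for 9 genes described above, by the interaction test of edgeR's quasi-likelihood fit (advanced minus early, log2). It was more positive at the advanced stage for Ly6a (8.53), Cd5l (8.27), Ndrg1 (6.24), Nr4a3 (3.56) and Vcam1 (2.69). It was more negative for Retnlg (-11.78), Ccr3 (-6.79), Ubxn1 (-3.08) and Filip1l (-2.07).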

How the results depend on the processing

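The comparison with monocytes called 1775 genes (1143 higher, 632 lower) in the fit of all 36 libraries and 4082 with quality weights per library in limma-voom, against 2713, and between 2307 and 4218 when single libraries were left out. The stage interaction called 77 genes in the fit of all libraries, 453 with DESeq2, 41 with quality weights, 6 with a separate spread per group and 43 to 291 without single libraries, against 127. The comparison with the peritoneum called 1548 genes in the fit of all libraries, 3908 with quality weights, 4150 without the library that stood apart and 2157 to 4150 without single libraries, against 2573. The other alternatives kept these counts within 1.5 times, except the replicate block for the interaction. Upper quartile factors moved the median fold change against monocytes by -0.11. Of 160 called named genes, 126 kept their call in all 19 alternatives, and none of these 160 changed sign. The fit of all 36 libraries lost 20 of these calls and a separate spread per group 15. In the fit of all libraries the lists had 5 MHC class II genes higher, 6 ribosomal genes lower and 6 interferon genes lower. Leaving out monocyte library 3 moved 19 named genes by over 1.5-fold.

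The replicate numbers do not pair the samples by their labels. The deviations of same-numbered libraries correlated at 0.0293, 0.00997, 0.120 and 0.0238. The highest correlation of each aortic library with a monocyte library of another number was 0.0210, 0.0219, 0.00840 and 0.0178. The same number was thus higher for replicates 1, 3 and 4 and lower for replicate 2. With the replicate block, 2420 genes were called against monocytes, 2247 against the peritoneum and 79 in the interaction.

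Depths of 942899 to 2468285 reads leave genes of a few CPM at a handful of reads, so that a 0 means not detected at this depth.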

Other observations

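Transcripts of eosinophil granules and receptors were counted in the advanced monocyte libraries, and these genes were picked after their values were seen. Epx, eosinophil peroxidase, had no count in the advanced aortic libraries, against 22.5, 66.8, 7.71 and 12.3 CPM in advanced monocyte libraries 1 to 4. Siglecf, a sialic acid receptor of eosinophils, had 0, 3.73, 0.416 and 0.405 CPM in the aortic libraries, against 7.28, 43.5, 11.3 and 3.63 CPM in the monocyte libraries. Ccr3 had 0, 10.7, 3.75 and 0.810 CPM in the aortic libraries, against 54.3, 177, 38.6 and 39.2 CPM in the monocyte libraries. Monocyte library 2 was the highest for all 3 genes, whereas library 3 was the highest for S100a9, S100a8, Ngp, Ltf and Elane. The neutrophil genes Mmp8 and Retnlg were highest in monocyte libraries 1 and 2.

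Retnlg reached 0 to 2.08 CPM in the advanced aortic libraries and 112, 204, 77.6 and 91.7 CPM in the early aortic libraries. S100a8 and S100a9, which neutrophils express with it, were at 0, 0, 0 and 0 CPM and 0, 0.762, 0 and 0 CPM in those early aortic libraries. The early monocyte libraries had 5383.5, 3924, 1225 and 3447 CPM of S100a9, a range that overlapped that of the advanced monocyte libraries. Retnlg was lower in each early monocyte library than in any advanced one, by the values given above. Its neighbour Retnla had 829 to 1174 CPM in the advanced aortic libraries and 1046, 831, 991 and 674 CPM in the early ones. In the advanced monocyte libraries, which held Retnlg reads, Retnla had no count. Whether reads of the 2 similar genes were shared was not tested.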
